A study of Mus musculus with 4 samples.

Results

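Glia and vascular cells of the mouse hippocampus were compared with those of the sensory cortex in the pair of single-cell RNA libraries titled sham. The members were every cell barcode of these libraries with at least 300 detected genes and at most 20% mitochondrial UMIs (unique molecular identifiers, which count captured RNA molecules), which gave 22317 of the 44912 barcodes kept in the whole series, 11231 from hippocampus and 11086 from cortex. All 4 libraries of the study came from wild-type (WT) mice. In each mouse group, hippocampus and sensory cortex were dissected after DOCA-salt treatment (deoxycorticosterone acetate with salt, used to raise blood pressure) or after a sham procedure, and cells were captured with the SeekOne Digital Droplet 3' kit. The labels state 3 mice per group, do not say whether the mice were pooled, and give neither age nor sex. There was 1 library for each tissue and treatment, so no difference below has a replicate check, no p-value is given, and every interval covers the counting error of UMIs or barcodes only. The titles and the treatment field of the labels conflict: the field gives DOCA-salt for the hippocampus library titled sham, and sham for the cortex library titled DOCA-salt. Groups follow the titles here. Read by that field instead, tissue and treatment would coincide in all 4 libraries (hippocampus with DOCA-salt, cortex with sham) and could not be told apart. The pair titled DOCA-salt, which shares no library with the sham pair, is given beside many of the results. Some genes were picked for a shared direction in both pairs, so for them the agreement was set by the choice.

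The hippocampus and the neocortex both arise from the dorsal telencephalon, but the hippocampus is thin, folds along the lateral ventricle with its choroid plexus and ependyma, and is bordered by dense white matter tracts. Astrocytes clear glutamate and potassium and vary in gene expression between brain regions, oligodendrocytes make myelin, microglia are the resident immune cells, and endothelial cells form the blood-brain barrier. Choroid plexus epithelium secretes cerebrospinal fluid and is the main brain source of transthyretin (Ttr), a carrier of thyroid hormone and retinol.

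The hippocampus and cortex sham libraries held 70173987 and 68152808 UMIs over 11394 and 11159 deposited barcodes, with medians of 5798 and 5802 UMIs per kept barcode. The sham libraries shared 94 barcodes, and the 6 pairs of libraries shared 94 to 105. Each barcode was assigned to a class when at least 3 of 8 marker genes of that class had a UMI, and barcodes that met the gates of classes from different lineages were called mixed and left out. Mixed barcodes made up 54.6% of hippocampus sham and 63.8% of cortex sham, so the classes hold a minority of the barcodes. No barcode was assigned to the neuron class in any library. The neuron gate was met by 148 barcodes of hippocampus sham and 16 of cortex sham, all called mixed or given to another class. The count of 0 thus follows from the gating and sets no limit on the share of neurons. The 4 largest classes, oligodendrocytes, astrocytes, microglia and endothelial cells, had 7, 2, 8 and 6 of their own markers among their 10 leading genes and none of another class. Among the astrocytes' leading genes these were Gja1 and Aqp4, a gap junction protein and a water channel. UMI counts of a class's cells were added up per library and given as CPM (the class sum scaled to 1e6 UMIs), and a ratio is the CPM of hippocampus over that of cortex.

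Library-wide RNA of neurons was too sparse to check the labelled tissues against principal neurons. Neurod6, a transcription factor of hippocampal and cortical pyramidal neurons, stood at 0.515 CPM over all kept barcodes in hippocampus sham and 0.0735 in cortex sham. Prox1, which marks dentate granule neurons and is also made by oligodendrocytes, stood at 65.7 CPM in hippocampus sham, 41.7 in cortex sham, 60.8 in hippocampus DOCA-salt and 41.0 in cortex DOCA-salt. Prox1 was higher in both hippocampus libraries, whereas Wfs1, a gene of CA1 pyramidal neurons that other cells also express, had a ratio of 0.362. Of 12 measured genes of hippocampal neurons 6 were at least 1.5-fold higher and 4 at least 1.5-fold lower in hippocampus sham, where 14.7% of 18436 genes were higher and 14.9% lower. Of 12 genes of cortical neurons 4 were higher and 2 lower in hippocampus sham. The median log2 ratio of 0.13 did not favour the cortex library. The 2 lower genes were Rorb and Fezf2. Rorb stood at 52.6 CPM in hippocampus sham, 284 in cortex sham, 112 in hippocampus DOCA-salt and 272 in cortex DOCA-salt. In the same order Fezf2 stood at 6.55, 23.2, 20.2 and 31.2 CPM. Of the 19353 Rorb UMIs in cortex sham 17023 lay in astrocytes when mixed barcodes went to the class with most markers. Tbr1, a transcription factor of glutamatergic neurons of cortex and hippocampus and of Cajal-Retzius cells, stood at 4.20 CPM in hippocampus sham, 0.353 in cortex sham, 3.43 in hippocampus DOCA-salt and 0.674 in cortex DOCA-salt, a sham ratio of 11.9 (interval 7.85 to 18.9). Emx1, a homeobox factor of the dorsal telencephalon, from which hippocampus and neocortex both arise, was nearly absent from the libraries labelled cortex, with 263 UMIs over all kept barcodes in hippocampus sham, 4 in cortex sham, 158 in hippocampus DOCA-salt and 3 in cortex DOCA-salt. Six3, a homeobox factor of the developing forebrain, had the opposite order, with 128, 511, 3 and 840 UMIs. These values do not match what is known of Emx1 in neocortex and put the label cortex in doubt. Every ratio of hippocampus to cortex below rests on that label, and the regions dissected could not be checked further.

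Choroid plexus RNA set the hippocampus sham library apart from the other 3. Over all kept barcodes Ttr stood at 18006 CPM in hippocampus sham, 31.8 in cortex sham, 118 in hippocampus DOCA-salt and 39.5 in cortex DOCA-salt, and was thus high in 1 library and not in both hippocampus libraries. Of 13 measured choroid plexus genes 12 were at least 1.5-fold higher in hippocampus sham than in cortex sham, and their summed level was 20081 CPM there against 744, 905 and 686 CPM in cortex sham, hippocampus DOCA-salt and cortex DOCA-salt. Kl, the klotho coreceptor made by this epithelium, stood at 29.2 CPM in hippocampus sham, 0.265 in cortex sham, 0.385 in hippocampus DOCA-salt and 0.150 in cortex DOCA-salt. Folr1, its folate receptor, stood at 51.4 CPM in hippocampus sham, 0.353 in cortex sham, 2.12 in hippocampus DOCA-salt and 0.315 in cortex DOCA-salt. Both followed Ttr, with hippocampus sham far above the rest.

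Ttr was also counted in classes not known to make it. In oligodendrocytes Ttr stood at 3402, 11.4, 23.1 and 18.2 CPM in hippocampus sham, cortex sham, hippocampus DOCA-salt and cortex DOCA-salt, and in microglia at 4293, 12.7, 31.1 and 16.9 CPM. Even barcodes gated as erythroid held 3590 CPM in hippocampus sham and 16.0 CPM in cortex sham. RNA of the most frequent classes was also counted elsewhere. Slc1a2, the astrocytic glutamate transporter, stood at 60.2 CPM in microglia of hippocampus sham and 256 CPM in those of cortex sham, while within astrocytes it stood at 6868 and 7345 CPM. Mbp, the basic protein that compacts myelin, stood in microglia at 449.8 CPM in hippocampus sham and 238 CPM in cortex sham. In microglia Slc1a2 and Mbp thus differed between the tissues in the direction of the astrocyte and oligodendrocyte shares described next. A gene is called the class's own below when, in the library where it was higher, its CPM in that class came to 0.2 or more of the highest CPM of any class with at least 20 cells. This rule was added after the values were seen. Border macrophages, ependymal, choroid plexus and smooth muscle cells reached 20 cells in hippocampus sham but not in cortex sham. Genes higher in hippocampus were thus held against more classes than lower genes, so own counts of higher and lower genes are not comparable.

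**Figure D1:**
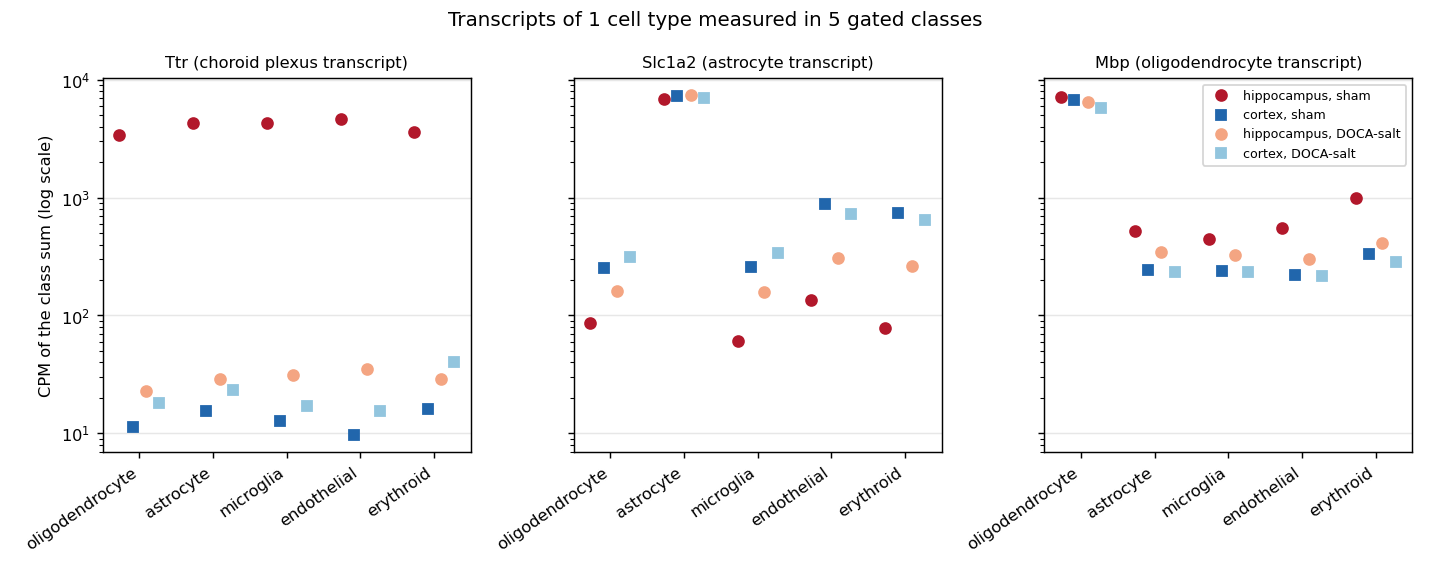
Level (CPM, log axis) of Ttr, Slc1a2 and Mbp in oligodendrocytes, astrocytes, microglia, endothelial and erythroid barcodes, with 1 point per library. Ttr is at 3402 CPM or more in all 5 classes of hippocampus sham and below 50 CPM in every class drawn of the other 3 libraries.

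Oligodendrocytes were the larger class in hippocampus and astrocytes the larger in cortex. Oligodendrocytes made up 28.7% of kept barcodes in hippocampus sham (exact binomial 95% interval 27.8 to 29.5), 10.6% in cortex sham (10.1 to 11.2), 16.9% in hippocampus DOCA-salt and 8.39% in cortex DOCA-salt. Their share was higher in hippocampus in both pairs, with a ratio of 2.70 (interval 2.52 to 2.89) in the sham pair and 2.02 (1.86 to 2.18) in the DOCA-salt pair. Astrocytes made up 2.51% (2.23 to 2.82), 13.3% (12.7 to 13.9), 5.98% and 16.4% of barcodes in the same order. Both hippocampus libraries were lower, with ratios of 0.189 (0.166 to 0.215) and 0.365 (0.334 to 0.399). When mixed barcodes were given to the class with the most markers detected, called the most-markers gate below, oligodendrocytes made up 47.0% and 28.2% of the sham libraries, a ratio of 1.67 (1.60 to 1.75), and astrocytes 8.20% and 32.6%, a ratio of 0.252. In dissociated tissue, the number of cells of a type and the ease with which they are released and captured cannot be told apart.

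In the sham pair microglia and endothelial cells differed less between the tissues than oligodendrocytes and astrocytes did. Microglia made up 7.17%, 7.71%, 9.20% and 4.03% of barcodes in hippocampus sham, cortex sham, hippocampus DOCA-salt and cortex DOCA-salt, a ratio of 0.929 (0.843 to 1.02) in the sham pair and of 2.28 (2.04 to 2.56) in the other. The sham interval includes 1, and with the most-markers gate the ratios were 0.920 (0.872 to 0.972) and 1.16 (1.10 to 1.23). Endothelial cells made up 2.92% of hippocampus sham and 2.22% of cortex sham, a ratio of 1.32 (1.11 to 1.56), and the DOCA-salt ratio was 2.36 (1.98 to 2.82), or 1.57 (1.42 to 1.73) with the most-markers gate.

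Rare classes of the ventricular wall and the marginal zone were found mainly in the hippocampus libraries. Choroid plexus cells numbered 49 in hippocampus sham, 0 in cortex sham, 1 in hippocampus DOCA-salt and 0 in cortex DOCA-salt. Their share in hippocampus sham was 16.1-fold that of 3 barcodes in cortex sham, the level set for a count of 0. The exact interval of the ratio began at 12.6. Only hippocampus sham held more than 1 such cell. Ependymal cells, the ciliated lining of the ventricles, numbered 22, 1, 25 and 1. Cajal-Retzius cells, the reelin-secreting neurons of the marginal zone that persist in the hippocampus, numbered 15, 0, 19 and 2. Both classes were thus found in the 2 hippocampus libraries in like number and at 0 to 2 cells in cortex, while choroid plexus cells were in 1 of them. With mixed barcodes assigned to their leading class, the counts were 248, 2, 3 and 1 for choroid plexus, 66, 7, 66 and 9 for ependyma, and 111, 6, 92 and 15 for Cajal-Retzius cells.

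**Figure D2:**
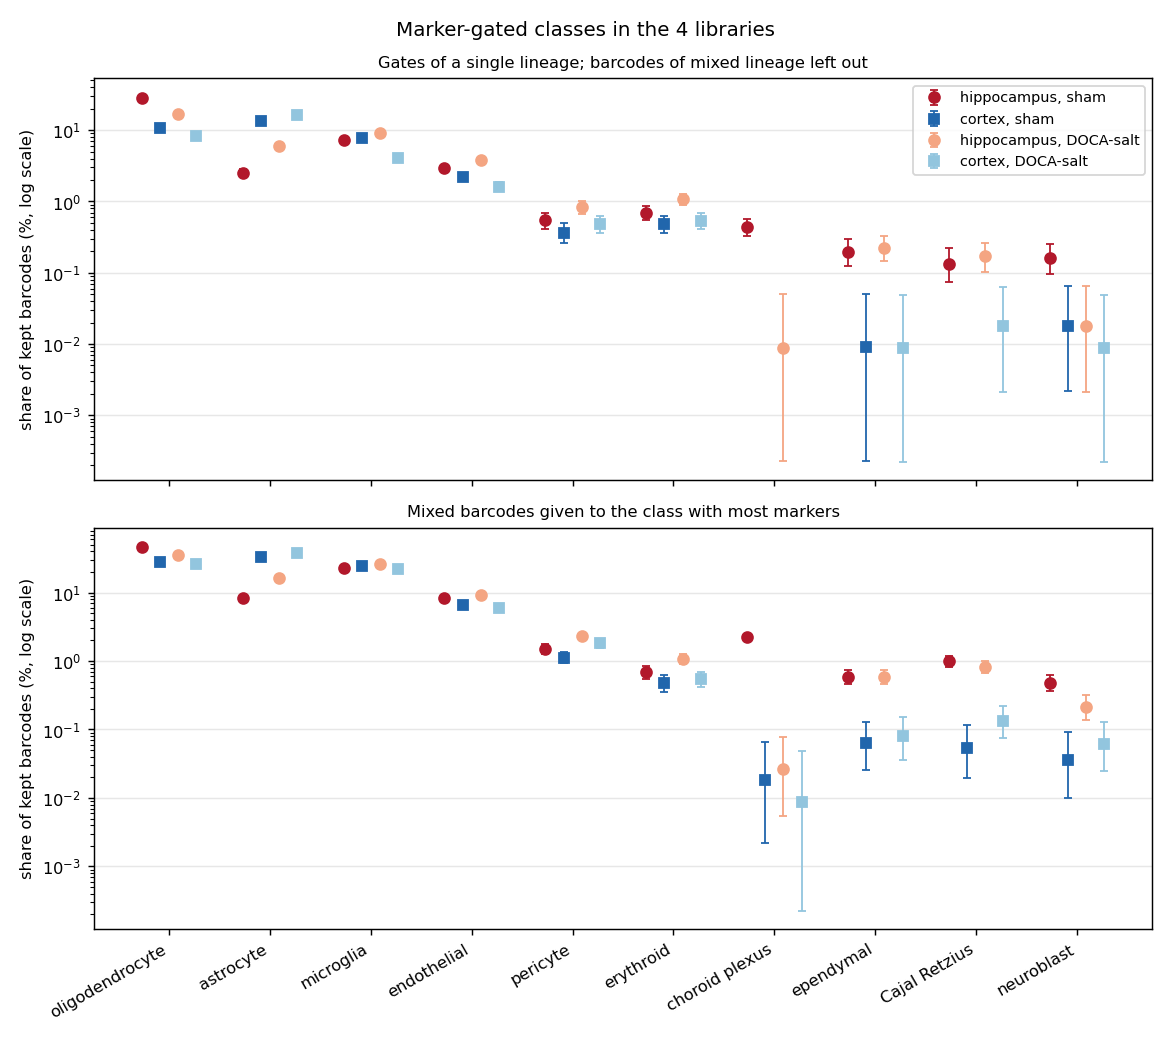
Share of kept barcodes (percent, log axis) in 10 classes and 4 libraries, with exact binomial 95% intervals, for the gate that leaves mixed barcodes out and for the gate that gives them to the class with the most markers. Classes with no barcode in a library are not drawn. Oligodendrocytes are higher and astrocytes lower in both hippocampus libraries under either gate.

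Among the 4 classes, astrocytes had the most genes of their own past the threshold. Of 10175 genes tested, 197 were at least 2-fold higher in hippocampus sham with an interval beside 1 (1.94%) and 220 were lower (2.16%), and 107 and 202 of these were the astrocytes' own. Of the own genes that could be measured in the DOCA-salt pair, 87 of 105 higher genes and 159 of 198 lower genes had the same direction there, 55 and 84 of them with an interval beside 1. The like counts were 33 of 41 and 12 of 17 in microglia, and 10 of 17 and 2 of 2 in oligodendrocytes. The share over all genes is not given. Over 10130 astrocyte genes the log2 ratios of the pairs had a Pearson correlation of 0.44. Hippocampal astrocytes were the shallower class, with a median of 2510 UMIs per cell against 3956 in cortex sham, and the hippocampus sum rested on 282 cells.

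Chl1, Nrn1, Zfhx4, Ctnna3 and Thbs4 led the genes higher in hippocampal astrocytes. Thbs4, like Slc38a1 and Cald1 below, was also picked for a shared direction in both pairs. Chl1, a cell adhesion molecule of the L1 family (chr6:103510586-103750211, GRCm38), stood at 48.7 CPM in hippocampus sham, 4.64 in cortex sham, 21.4 in hippocampus DOCA-salt and 5.67 in cortex DOCA-salt. It was higher in both hippocampus libraries, with ratios of 10.5 (interval 6.35 to 17.6) and 3.78 (interval 2.43 to 5.90). Nrn1, which encodes the neurite growth factor neuritin, stood at 46.2 and 4.96 CPM in hippocampus and cortex sham and 41.9 and 13.1 CPM in the DOCA-salt libraries, a sham ratio of 9.33 (interval 5.65 to 15.5) and a DOCA-salt ratio of 3.19. Thbs4, a thrombospondin secreted into the matrix (chr13:92751590-92794818), stood at 38.9 and 6.71 CPM in hippocampus and cortex sham and 41.9 and 4.01 CPM in the DOCA-salt libraries. Its ratio was 5.80 (interval 3.54 to 9.41) in the sham pair and 10.5 (interval 6.83 to 16.5) in the DOCA-salt pair. Few cells held this RNA: in hippocampus sham 16 of 282 astrocytes held the 32 Thbs4 UMIs, and 5 of them held 56.25%. After thinning every cell to 2000 UMIs, Thbs4 was detected in 5.75% of hippocampus sham astrocytes and 0.799% of cortex sham astrocytes, against 0.067% and 0.193% of oligodendrocytes, and unthinned in 5.67% and 1.56% of astrocytes. Chl1 was detected in 10.3% and 0.799% of thinned astrocytes and in 0.331% of thinned hippocampus sham microglia, and unthinned in 12.1% and 1.76% of astrocytes. Zfhx4, a zinc finger homeobox factor, and Ctnna3, an alpha-catenin, had sham ratios of 6.21 (interval 3.99 to 9.63) and 6.19 (interval 3.85 to 9.91) and DOCA-salt ratios of 2.74 and 3.02. The sham ratio of Chl1 was 6.35 and that of Ctnna3 2.82, and the DOCA-salt ratio of Thbs4 was 6.14 with the most-markers gate. Ctnna3 in astrocytes came to 0.42 of its level in oligodendrocytes of hippocampus sham. Slc38a1, a glutamine transporter, and Cald1, an actin-binding protein, met the naming rule with ratios of 4.76 and 4.87, but ependymal cells and pericytes held far more of them. Several of these genes are also expressed by neurons. In the same astrocytes the list of neuronal RNA had 2 members at least 1.5-fold higher and 3 lower of 11 measured, with a median log2 ratio of -0.03. Over all kept barcodes 9 of 16 members were higher and 3 lower in hippocampus sham, with a median of 0.75. The part of neuronal RNA in the ratios of these genes was not tested.

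Hes5, Rpe65, Six3, Fzd2, Gfra1 and Gdf10 led the genes lower in hippocampal astrocytes. Hes5, Rpe65 and Six3 were picked for a shared direction in both pairs. Hes5, a transcription factor that acts downstream of Notch (chr4:154960923-154962371), stood at 152 CPM in hippocampus sham, 486 in cortex sham, 272 in hippocampus DOCA-salt and 800.2 in cortex DOCA-salt. Both hippocampus libraries were below both cortex libraries, with ratios of 0.313 (interval 0.259 to 0.374) and 0.340 (interval 0.312 to 0.370). In thinned astrocytes Hes5 was detected in 25.3% of hippocampus sham cells (19.0 to 32.4) and 52.5% of cortex sham cells (49.6 to 55.5), against 0.826% and 4.03% of thinned microglia, and unthinned in 27.3% and 62.2% of astrocytes. Rpe65, the retinoid isomerase known from the retinal pigment epithelium (chr3:159599175-159625321), stood at 17.0 CPM in hippocampus sham, 117 in cortex sham, 16.4 in hippocampus DOCA-salt and 87.4 in cortex DOCA-salt. Its ratios of 0.146 (interval 0.0793 to 0.246) and 0.188 (interval 0.130 to 0.263) again placed both hippocampus libraries low. Six3 had 1 UMI in hippocampus sham astrocytes and 111 in those of cortex sham, a ratio of 0.0686 (interval 0.0017 to 0.390). In the DOCA-salt pair Six3 had 0 and 221 UMIs, and the interval of the ratio ended at 0.0555. Fzd2, a Wnt receptor, stood at 113 and 376 CPM in hippocampus and cortex sham and 153 and 293 CPM in the DOCA-salt libraries, with ratios of 0.301 (interval 0.242 to 0.371) and 0.522. Gfra1, the GDNF coreceptor, stood at 10.9 and 64.4 CPM in hippocampus and cortex sham and 21.9 and 49.5 CPM in the DOCA-salt libraries, and Gdf10, a secreted factor of the TGF-beta family, at 7.30 and 48.9 CPM in hippocampus and cortex sham and 17.3 and 49.5 CPM in the DOCA-salt libraries. Their sham ratios of 0.170 (interval 0.0771 to 0.326) and 0.149 (interval 0.0543 to 0.329) stood beside DOCA-salt ratios of 0.442 and 0.350, so the direction was shared and the ratios lay nearer to 1 in the second pair. The sham ratio of Gdf10 was 0.225 with the most-markers gate.

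Myoc, a secreted glycoprotein known from the eye and from surface astrocytes, did not keep its direction between the pairs under the gate that leaves mixed barcodes out. It stood at 4.87 CPM in hippocampus sham, 48.9 in cortex sham, 40.6 in hippocampus DOCA-salt and 4.01 in cortex DOCA-salt, so that the library with the most was the cortex in one pair and the hippocampus in the other. The 5 cells with the most Myoc held 100%, 83.3%, 98.9% and 89.7% of its UMIs in these libraries. With the most-markers gate Myoc was higher in hippocampus in both pairs, with ratios of 1.49 (interval 1.34 to 1.66) and 3.64 (interval 3.25 to 4.07).

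**Figure D3:**
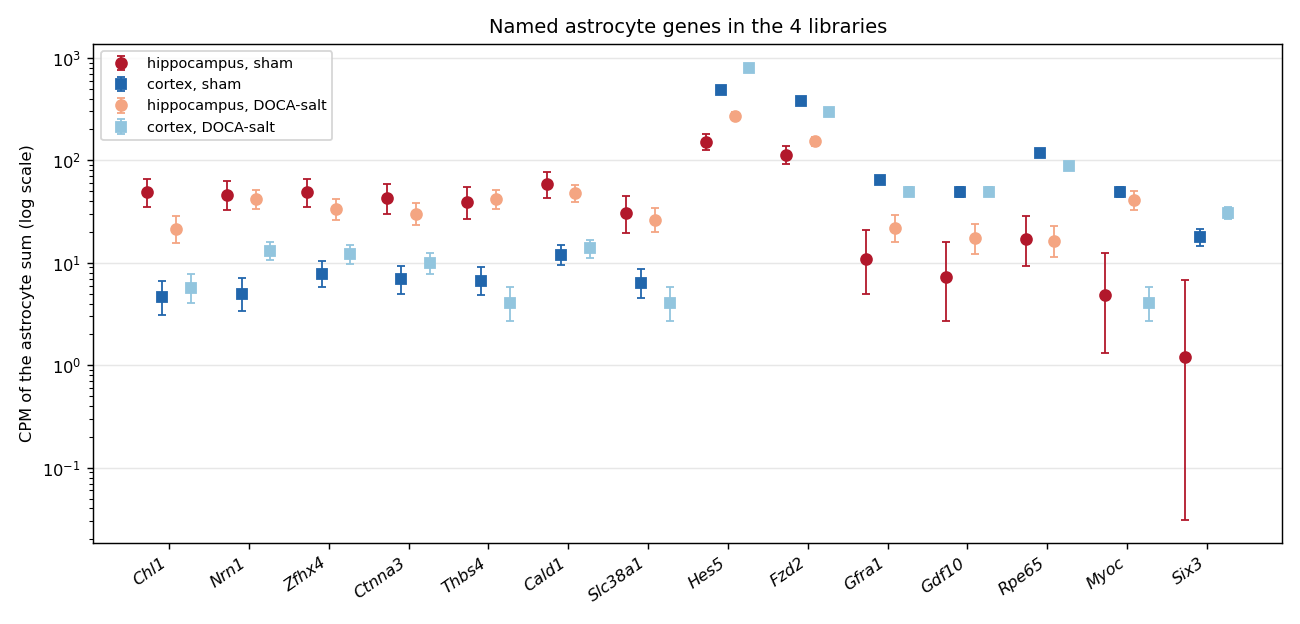
Level (CPM, log axis) of the 14 named genes in astrocytes of the 4 libraries, with exact Poisson 95% intervals. Of the 7 genes lower in hippocampus sham, 6 were lower in both hippocampus libraries and Myoc was not. Hes5, Rpe65 and Six3 were picked for a shared direction in both pairs. The 0 of Six3 in hippocampus DOCA-salt is not drawn.

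Lists of regional astrocyte genes moved in part. Of 12 measured genes known from hippocampal or white matter astrocytes 4 were at least 1.5-fold higher and 1 lower in hippocampus sham, where 11.1% of all genes tested were higher and 13.4% lower, and the median log2 ratio was 0.14 against -0.03 over all genes. Gfap, the intermediate filament of reactive and white matter astrocytes, stood at 159 CPM in hippocampus sham, 87.3 in cortex sham, 189 in hippocampus DOCA-salt and 53.4 in cortex DOCA-salt, ratios of 1.83 (interval 1.497 to 2.21) and 3.55 (interval 3.08 to 4.08). Vim, another intermediate filament, stood at 101 and 62.0 CPM in hippocampus and cortex sham and 112 and 55.3 CPM in the DOCA-salt libraries. Both filament genes were higher in both hippocampus libraries than in either cortex library. Of 14 genes known from cortical astrocytes 4 were lower and 1 higher, with a median of -0.25. Mfge8, a bridging protein for the uptake of dying cells, stood at 1421 CPM in hippocampus sham, 3015 in cortex sham, 1765 in hippocampus DOCA-salt and 3065 in cortex DOCA-salt, ratios of 0.471 (interval 0.444 to 0.5001) and 0.576 (interval 0.557 to 0.596), and Chrdl1, a secreted antagonist of BMP that acts on synapses, at 15.8 and 58.5 CPM in hippocampus and cortex sham and 23.2 and 46.4 CPM in the DOCA-salt libraries. Mfge8 and Chrdl1 were lower in both hippocampus libraries.

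Agt, which encodes angiotensinogen and is strongest in astrocytes outside the telencephalon, stood at 590 CPM in hippocampus sham, 362 in cortex sham, 658 in hippocampus DOCA-salt and 711 in cortex DOCA-salt. The hippocampus was higher in the sham pair, with a ratio of 1.63 (interval 1.47 to 1.80), and the DOCA-salt pair was near 1 at 0.926 (interval 0.873 to 0.982), or 0.991 (interval 0.960 to 1.02) with the most-markers gate. Of 6 measured genes of nontelencephalic astrocytes, Agt among them, 4 were higher and 1, Gdf10, was lower in hippocampus sham, beside 11.1% and 13.4% of all genes, with a median of 0.71. In the DOCA-salt pair 2 of 8 were higher and 1 lower, beside 7.8% and 7.5% of all genes, with a median of 0.10.

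Genes of cholesterol synthesis were on the low side in hippocampal astrocytes. All 18 measured enzymes and regulators had a sham ratio below 1, 6 of them at least 1.5-fold lower and none at least 1.5-fold higher, with a median log2 ratio of -0.53. Msmo1, a sterol C4 demethylase, stood at 570.5 CPM in hippocampus sham, 1104 in cortex sham, 729 in hippocampus DOCA-salt and 941 in cortex DOCA-salt, a sham ratio of 0.517 (interval 0.469 to 0.567) and a DOCA-salt ratio of 0.775 (interval 0.734 to 0.819). Dhcr7, the last enzyme of the Kandutsch-Russell branch, stood at 63.3 and 134 CPM in hippocampus and cortex sham and 88.0 and 123 CPM in the DOCA-salt libraries, and Lss, which closes the sterol ring, at 7.30 and 22.7 CPM in hippocampus and cortex sham and 22.8 and 18.2 CPM in the DOCA-salt libraries. For Dhcr7 the hippocampus was lower in both pairs, while Lss was low in hippocampus sham only, with a sham ratio of 0.321 that was 0.709 with the most-markers gate. In the DOCA-salt pair 0 of 18 were past 1.5-fold either way, beside 7.8% of all genes higher and 7.5% lower, and the median was -0.10. A list of astrocyte homeostasis, which spans glutamate and potassium handling and secreted proteins, had 1 of 14 genes higher and 2 lower and a median of -0.16: Kcnj10, the inward rectifier that buffers potassium, stood at 197 and 94.3 CPM in hippocampus and cortex sham and 152 and 101 CPM in the DOCA-salt libraries, and Clu, the secreted chaperone clusterin, at 4634 and 7944 CPM in hippocampus and cortex sham and 5596 and 6993 CPM in the DOCA-salt libraries. Kcnj10 was higher and Clu lower in the hippocampus of both pairs. Nuclear genes of oxidative phosphorylation had 0 of 28 higher and 1 lower with a median of -0.05. Myelin RNA inside these astrocytes was higher in hippocampus sham for 13 of 15 genes past 1.5-fold and lower for 0, with a median of 0.95, in the same direction as the oligodendrocyte share, and its part in the astrocyte results was not tested.

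Microglia of the hippocampus sham library held more RNA of interferon-stimulated genes. These genes are switched on by type I interferon through transcription factors, STAT2 and IRF9 among them, that bind interferon-stimulated response elements in promoters, and their products block viral replication. Of 9269 genes tested in microglia 126 were at least 2-fold higher (1.36%) and 132 lower (1.42%) in hippocampus sham, and 50 and 22 of them were the microglia's own. Of the lower genes that were not, 103 of 110 were highest in astrocytes, and 57 of the 76 such higher genes were highest in oligodendrocytes.

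Promoter sequences of 3 interferon-stimulated genes that were higher are shown because they carry the letters of the response element. They are the 250 bases before the transcription start, from RefSeq on GRCm38.p6, read 5′ to 3′ along the gene, with each match to GAAANNGAAA on either strand in capitals.
Ifit1 (chr19:34640639-34640888, plus strand): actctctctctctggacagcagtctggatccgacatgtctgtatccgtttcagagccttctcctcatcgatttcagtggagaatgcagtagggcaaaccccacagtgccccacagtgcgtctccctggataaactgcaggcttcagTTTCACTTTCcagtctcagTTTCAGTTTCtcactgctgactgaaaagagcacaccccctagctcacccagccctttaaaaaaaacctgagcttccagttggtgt
Ifit3 (chr19:34583279-34583528, plus strand): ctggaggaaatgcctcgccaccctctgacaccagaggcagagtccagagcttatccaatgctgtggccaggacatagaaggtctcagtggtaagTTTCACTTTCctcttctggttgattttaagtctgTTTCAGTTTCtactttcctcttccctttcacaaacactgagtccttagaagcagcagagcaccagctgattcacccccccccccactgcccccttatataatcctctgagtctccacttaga
Isg15 (chr4:156200819-156201068, minus strand): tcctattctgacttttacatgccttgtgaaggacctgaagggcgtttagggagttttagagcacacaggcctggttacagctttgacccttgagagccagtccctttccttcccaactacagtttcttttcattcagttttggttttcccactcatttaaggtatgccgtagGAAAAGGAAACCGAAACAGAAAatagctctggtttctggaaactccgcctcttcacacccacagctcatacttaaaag
Ifit1 and Ifit3 each hold 2 matches and Isg15 holds 3 that overlap. Over windows of 300 bases, 250 before and 50 after the start, 1079 of 27025 genes held a match (3.99%), as did 10 of the 17 listed interferon genes with a promoter sequence (58.8%). Among those measured in microglia, 8 of 9 genes at least 1.5-fold higher in hippocampus sham held a match and 2 of 7 others did. The 8 include Ifit3b, a near-identical copy of Ifit3, and Ifih1 and Ifitm3, whose matches lay only after the start. The genes were split by the same sham ratios, so the counts are no separate support for those ratios. Ifit2, with promoter windows from 2 start sites, held none. A match is a description of letters, not a site of binding.

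The Ifit genes, which encode RNA-binding effectors, were the highest in ratio. Ifit1 stood at 169 CPM in hippocampus sham, 57.8 in cortex sham, 46.1 in hippocampus DOCA-salt and 48.2 in cortex DOCA-salt. Hippocampus sham was high and the other 3 libraries were alike, with a sham ratio of 2.93 (interval 2.49 to 3.46) and a DOCA-salt ratio of 0.958 (interval 0.730 to 1.27). Ifit2 stood at 152 CPM in hippocampus sham, 45.4 in cortex sham, 49.8 in hippocampus DOCA-salt and 36.5 in cortex DOCA-salt, and Ifit3, whose promoter is shown above, at 37.6 CPM in hippocampus sham, 8.25 in cortex sham, 13.7 in hippocampus DOCA-salt and 10.4 in cortex DOCA-salt. Their sham ratios were 3.36 (interval 2.81 to 4.04) and 4.55 (interval 3.02 to 7.05), and their DOCA-salt ratios 1.37 (interval 1.01 to 1.87) and 1.32 (interval 0.748 to 2.45). Reads of Ifit3 and of its near-identical copy Ifit3b, whose ratio was 3.25, may not be told apart. The ratios of Ifit3 were 2.31 (interval 1.99 to 2.69) and 0.746 (interval 0.624 to 0.891) with the most-markers gate.

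Isg15, a ubiquitin-like modifier secreted and conjugated after interferon, stood at 697 CPM in hippocampus sham, 362 in cortex sham, 364 in hippocampus DOCA-salt and 270.1 in cortex DOCA-salt. It was highest in hippocampus sham, with ratios of 1.93 (interval 1.80 to 2.06) and 1.35 (interval 1.21 to 1.504). Ifih1, the sensor MDA5 for long double-stranded RNA (chr2:62595798-62646255), stood at 405 CPM in hippocampus sham, 249 in cortex sham, 257 in hippocampus DOCA-salt and 145 in cortex DOCA-salt. Ifih1 was higher in the hippocampus of both pairs, with ratios of 1.63 (interval 1.49 to 1.77) and 1.77 (interval 1.53 to 2.05). Rsad2, the antiviral enzyme viperin, stood at 5.18 and 1.93 CPM in hippocampus and cortex sham and 2.51 and 2.60 CPM in the DOCA-salt libraries, a sham ratio of 2.69 (interval 1.05 to 7.73). Of 19 measured interferon-stimulated genes 11 were at least 1.5-fold higher and 0 lower in hippocampus sham, where 8.41% of all genes tested were higher and 6.41% lower, and the median log2 ratio was 0.74 against -0.0049 over all genes. In the DOCA-salt pair, where the 19 measured members were partly others, 6 were higher and 0 lower with a median of 0.43, beside 7.93% and 6.96% of all genes. With the most-markers gate 9 of 21 were higher and 0 lower in the sham pair, with a median of 0.48, and 1 of 21 was higher and 1 lower in the DOCA-salt pair, with a median of 0.07. Rsad2 then had a sham ratio of 1.66. Oasl2, Trim30a and Irf9, of the same list, had sham ratios of 0.809, 1.02 and 1.10, and Stat2 one of 1.67, so the members of the list did not all differ.

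The shares of microglia that held this RNA also differed. After thinning to 2000 UMIs, Isg15 was detected in 49.8% of hippocampus sham microglia (45.7 to 53.8), 30.3% of cortex sham (26.8 to 33.9), 31.6% of hippocampus DOCA-salt and 25.7% of cortex DOCA-salt microglia, against 2.88% and 1.74% of sham oligodendrocytes. Ifit1 was detected in 20.2% (17.0 to 23.6), 7.61% (5.72 to 9.89), 6.0% and 4.95% of microglia in the same order, against 0.737% and 0.289% of sham oligodendrocytes. Hippocampus sham again stood above 3 libraries whose shares lay closer together. Unthinned, Isg15 was in 54.3% and 38.8% and Ifit1 in 22.5% and 11.7% of sham microglia. Thinning left out 200 hippocampus and 185 cortex sham microglia, and median depths were 4100 and 4615 UMIs in microglia and 5867 and 5062 in oligodendrocytes. In endothelial cells 4 of 20 interferon-stimulated genes were higher and 2 lower, beside 7.99% and 10.5% of all genes, with a median of 0.19.

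**Figure D4:**
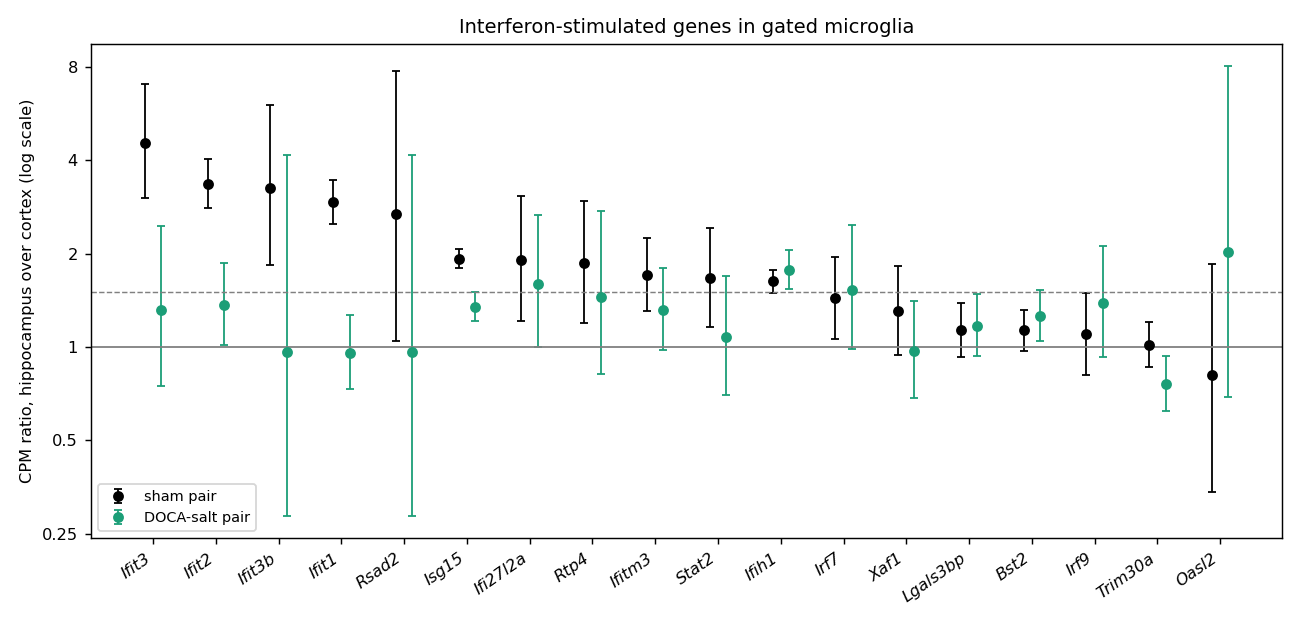
Ratio of hippocampus to cortex (log axis) with exact 95% counting intervals for 18 of the 19 measured interferon-stimulated genes in microglia, in the sham pair (black) and the DOCA-salt pair (green), with lines at 1 and 1.5. In the sham pair 11 genes lie at or past 1.5; Ifit1, Ifit2 and Ifit3 are past it in the sham pair and below it in the DOCA-salt pair.

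Other microglial genes went both ways. Tmx4 and Wfdc17, like Ifih1 above, were picked for a shared direction in both pairs. Tcim, a small regulator of transcription linked to Wnt signalling, stood at 27.2 CPM in hippocampus sham, 3.03 in cortex sham, 23.1 in hippocampus DOCA-salt and 9.11 in cortex DOCA-salt, higher in the hippocampus of both pairs with ratios of 8.99 (interval 4.78 to 18.7) and 2.53 (interval 1.44 to 4.795). Tmx4, a thioredoxin-like membrane protein of the endoplasmic reticulum, stood at 408 and 245 CPM in hippocampus and cortex sham and 389 and 192 CPM in the DOCA-salt libraries, with ratios of 1.67 (interval 1.53 to 1.82) and 2.02. Fam71a had a sham ratio of 7.23 (interval 3.23 to 19.1) and a DOCA-salt ratio of 1.60. In hippocampus sham Tcim in microglia came to 0.25 of its level in endothelial cells. Fam71a came to 0.44 of its level in border macrophages. The part of RNA from those cells in the ratios of Tcim and Fam71a was not tested. The sham ratios of Fam71a, Wfdc17 and Pcp4 were 4.44, 1.92 and 5.26 with the most-markers gate. Wfdc17, with a ratio outside that gate of 7.21, had 67.3% of its hippocampus sham UMIs in 5 cells, and border macrophages held far more of it. Pcp4, a calmodulin-binding protein, had a ratio of 10.6 but stood highest in choroid plexus cells.

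The chemokine genes Ccl7 and Cxcl2 were among those lower in hippocampal microglia, but few cells held most of their RNA. Ccl7, a monocyte chemoattractant, stood at 15.9 CPM in hippocampus sham, 56.1 in cortex sham, 24.9 in hippocampus DOCA-salt and 38.4 in cortex DOCA-salt, lower in hippocampus in both pairs with ratios of 0.283 (interval 0.203 to 0.388) and 0.648 (interval 0.468 to 0.906). Cxcl2, a neutrophil chemoattractant, stood at 56.3 CPM in hippocampus sham, 118 in cortex sham, 129 in hippocampus DOCA-salt and 128 in cortex DOCA-salt. Cxcl2 was low in hippocampus sham alone, with ratios of 0.479 (interval 0.399 to 0.572) and 1.01. With the most-markers gate both were lower in hippocampus in both pairs, Ccl7 with ratios of 0.474 and 0.275 and Cxcl2 with 0.531 and 0.468 (interval 0.443 to 0.495). In hippocampus and cortex sham 5 microglia held 51.0% and 31.4% of the Ccl7 UMIs and 56.3% and 46.7% of the Cxcl2 UMIs. Border macrophages, which numbered 24 and 18, held far more of both, with Ccl7 at 1698 and 3825 CPM and Cxcl2 at 1523 and 3541 CPM, and the part of such cells in the microglial difference was not tested. Their 18 cells in cortex sham fell under the limit of 20, so both genes had counted as the microglia's own. Il1a, the interleukin-1 alpha gene, stood at 638 and 1021 CPM in hippocampus and cortex sham and 646 and 979 CPM in the DOCA-salt libraries, and was lower in both hippocampus libraries. Of 19 cytokine genes 1 was higher and 3 lower, beside 8.41% and 6.41% of all genes, with a median of -0.21. Id2, an inhibitor of bHLH factors, had ratios of 0.510 (interval 0.471 to 0.553) and 0.609, Trib1, a pseudokinase, of 0.559 (interval 0.488 to 0.639) and 0.552, and Nr4a1, an orphan nuclear receptor induced within minutes by stimuli, of 0.557 (interval 0.4996 to 0.621) and 0.590. These 3 genes were lower in the hippocampus of both pairs. Ston2, an endocytic adaptor, had ratios of 0.530 and 0.541. Trib1, Nr4a1 and Ston2 were picked for a shared direction in both pairs. Dusp8, a phosphatase of stress kinases, and Ephb3, an ephrin receptor, had sham ratios of 0.452 and 0.294 and DOCA-salt ratios of 0.974 and 0.819. The sham ratio of Ephb3 was 0.653 with the most-markers gate. Ephb3 and Id2 in microglia of cortex sham came to 0.28 and 0.43 of their levels in its astrocytes. The part of astrocyte RNA in the Ephb3 and Id2 ratios was not tested.

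The identity genes of microglia hardly differed. Of 19 homeostatic genes 0 were past 1.5-fold in either direction in either pair, with a median log2 ratio of 0.04 in the sham pair. C1qa, a subunit of complement C1q, stood at 6347 and 5947 CPM in hippocampus and cortex sham and 6586 and 5796 CPM in the DOCA-salt libraries, and Csf1r, the receptor that keeps microglia alive, at 2338 and 2334 CPM in hippocampus and cortex sham and 2470 and 2163 CPM in the DOCA-salt libraries. The 4 libraries were close for both genes. Of 16 disease-associated genes 4 were higher and 1 lower, beside 8.41% and 6.41% of all genes, with a median of 0.17. MHC class II genes were higher for 3 of 8, but rested on few cells: H2-Aa stood at 105 and 31.6 CPM in hippocampus and cortex sham and 119 and 92.4 CPM in the DOCA-salt libraries, and 5 cells held 92% of its UMIs in hippocampus sham and 89.6% in cortex sham. The ratios of H2-Aa were 2.004 and 1.95 with the most-markers gate. Myelin RNA in these microglia was higher in hippocampus sham for 15 of 15 genes with a median of 0.87, and homeostatic astrocyte RNA lower for 10 of 14 with a median of -1.54, and their part in the microglial results was not tested.

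Oligodendrocytes of the sham libraries differed little in genes of their own. Of 11111 genes tested 102 were at least 2-fold higher (0.918%) and 193 lower (1.74%) in hippocampus sham, but 24 and 6 of them were the oligodendrocytes' own. Of the 187 other lower genes 170 were highest in astrocytes, and 55 of the 78 other higher genes were highest in classes outside the 4 largest. Myelin genes had 0 of 15 past 1.5-fold and a median of 0.00, beside 5.95% of all genes higher and 6.73% lower. Mbp stood at 7098 CPM in hippocampus sham, 6705 in cortex sham, 6535 in hippocampus DOCA-salt and 5789 in cortex DOCA-salt. In the DOCA-salt pair 0 of 15 myelin genes were past 1.5-fold, beside 6.02% of all genes higher and 5.56% lower. The Mbp levels in hippocampus and cortex sham were close, and so were those of 28 oxidative phosphorylation genes (0 past 1.5-fold in the sham pair) and 18 cholesterol synthesis genes (0 past 1.5-fold, median 0.01).

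Bcat1 and Zfhx4 were higher in hippocampal oligodendrocytes. Both, like Rap1gap and Zfp467 below, were picked for a shared direction in both pairs. Bcat1, the cytosolic aminotransferase of branched-chain amino acids (chr6:144993835-145076184), stood at 36.6 CPM in hippocampus sham, 16.3 in cortex sham, 18.4 in hippocampus DOCA-salt and 7.49 in cortex DOCA-salt. Within each pair the hippocampus was higher, with ratios of 2.24 (interval 1.81 to 2.82) and 2.45 (interval 1.66 to 3.74), although hippocampus DOCA-salt and cortex sham lay close. Zfhx4, which was also higher in hippocampal astrocytes, stood at 17.8 CPM in hippocampus sham, 4.90 in cortex sham, 15.3 in hippocampus DOCA-salt and 5.99 in cortex DOCA-salt. Its ratios were 3.64 (interval 2.47 to 5.55) and 2.55 (interval 1.65 to 4.10). Eno2, the neuron-type enolase, stood at 4.78 and 11.9 CPM in hippocampus and cortex sham and 8.88 and 12.5 CPM in the DOCA-salt libraries, with ratios of 0.401 (interval 0.289 to 0.559) and 0.712. Gnb1l, a WD-repeat protein, stood at 40.8 and 78.6 CPM in hippocampus and cortex sham and 58.7 and 62.6 CPM in the DOCA-salt libraries, with ratios of 0.519 (interval 0.461 to 0.584) and 0.937. Eno2 and Gnb1l were lowest in hippocampus sham. Rap1gap, which switches off the GTPase Rap1, had ratios of 0.538 and 0.413, and Zfp467, a zinc finger factor, of 0.681 and 0.583, lower in the hippocampus of both pairs. Gpr45, an orphan receptor, and Slc5a11, an inositol transporter, had sham ratios of 0.318 and 0.472 and DOCA-salt ratios of 0.760 and 0.948. The sham ratio of Gpr45 was 0.663 with the most-markers gate. Rap1gap and Gpr45 in oligodendrocytes of cortex sham came to 0.40 and 0.59 of their levels in its astrocytes. The part of astrocyte RNA in the Rap1gap and Gpr45 ratios was not tested.

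Klk6 and Cntnap5a changed order between the pairs. Klk6, a protease of a white matter oligodendrocyte state, stood at 19.97 CPM in hippocampus sham, 33.4 in cortex sham, 18.5 in hippocampus DOCA-salt and 9.48 in cortex DOCA-salt, with ratios of 0.597 (interval 0.5002 to 0.715) and 1.95 (interval 1.37 to 2.84). Cntnap5a, a contactin-associated protein, stood at 15.0 CPM in hippocampus sham, 29.4 in cortex sham, 22.4 in hippocampus DOCA-salt and 14.5 in cortex DOCA-salt, with ratios of 0.511 (interval 0.421 to 0.622) and 1.55 (interval 1.15 to 2.10). Both were lower in hippocampus sham than in cortex sham and higher in the hippocampus of the other pair. With the most-markers gate Cntnap5a kept this order, whereas Klk6 was lower in hippocampus in both pairs, with ratios of 0.461 and 0.303 (interval 0.276 to 0.332). Igf2, Wfdc2, Cox8b, Lbp, Nsg2 and Ly6h met the naming rule in oligodendrocytes, but choroid plexus or ependymal cells held far more of them: Igf2 stood at 8.64 CPM in hippocampus sham, 0.175 in cortex sham, 1.20 in hippocampus DOCA-salt and 0.749 in cortex DOCA-salt, high in hippocampus sham as Ttr was. Apoe, the lipid carrier made mostly by astrocytes, stood at 2997 and 4308 CPM in hippocampus and cortex sham and 4490.5 and 6545 CPM in the DOCA-salt libraries in this class.

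The barrier genes of endothelial cells hardly differed between the tissues. Of 25 blood-brain barrier genes 0 were past 1.5-fold in the sham pair, with a median log2 ratio of 0.03, and of 12 capillary genes 0 were, with a median of 0.01, beside 7.99% of all genes higher and 10.5% lower. At 2-fold, 32 of 4501 genes were higher (0.711%) and 55 lower (1.22%), of which 13 and 17 were the class's own. Of the own genes that could be measured in the DOCA-salt pair, 5 of 11 higher genes and 7 of 17 lower genes had the same direction there. Klf2, a flow-responsive transcription factor, stood at 3154 CPM in hippocampus sham, 2067 in cortex sham, 3949 in hippocampus DOCA-salt and 3318 in cortex DOCA-salt, with ratios of 1.53 (interval 1.43 to 1.63) and 1.19 (interval 1.12 to 1.26). It was higher in the hippocampus of each pair by a modest factor. Slc7a5, the transporter of large neutral amino acids, stood at 666 and 510.1 CPM in hippocampus and cortex sham and 397 and 261 CPM in the DOCA-salt libraries, with ratios of 1.30 (interval 1.13 to 1.504) and 1.52 (interval 1.24 to 1.88), and Junb, an AP-1 subunit, at 3583 and 2982 CPM in hippocampus and cortex sham and 4752 and 3987 CPM in the DOCA-salt libraries. The hippocampus was higher in each pair for both genes, but Klf2, Slc7a5 and Junb were picked for a shared direction in both pairs. Depp1, a stress-induced gene, had ratios of 2.04 (interval 1.43 to 2.96) and 1.45. Kat2b, a histone acetyltransferase, and Ppp1cc, a phosphatase subunit, had sham ratios of 2.75 and 2.30 but DOCA-salt ratios of 0.940 and 0.726. Their sham ratios were 1.31 and 1.19 with the most-markers gate.

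Some venous genes were lower in hippocampus sham. Slc38a5, a glutamine transporter of venous capillaries, stood at 131 CPM in hippocampus sham, 259 in cortex sham, 274 in hippocampus DOCA-salt and 241 in cortex DOCA-salt. It was low in hippocampus sham alone, with ratios of 0.505 (interval 0.391 to 0.650) and 1.14 (interval 0.914 to 1.43). Of 10 venous genes 0 were higher and 3 lower in hippocampus sham, beside 7.99% of all genes higher and 10.5% lower, with a median of -0.42. In the DOCA-salt pair 2 of 12 were higher and 2 lower with a median of 0.37, beside 11% of all genes higher and 9.31% lower. Of 9 arterial genes 2 were higher and 1 lower in hippocampus sham, beside 7.99% and 10.5% of all genes, with a median of -0.10. Lfng, a glycosyltransferase that tunes Notch, stood at 26.4 and 62.4 CPM in hippocampus and cortex sham and 24.9 and 55.3 CPM in the DOCA-salt libraries, with ratios of 0.424 (interval 0.237 to 0.738) and 0.451 (interval 0.256 to 0.80), lower in both hippocampus libraries. The sham ratio of Lfng was 0.662 and that of Gnb1l, given below, 0.461 with the most-markers gate. Sox18, an endothelial transcription factor, stood at 67.9 and 155 CPM in hippocampus and cortex sham and 92.2 and 70.7 CPM in the DOCA-salt libraries, low in hippocampus sham against cortex sham but not in the other pair. Gnb1l, Tmem176b and Camk2n1 had sham ratios of 0.269, 0.491 and 0.483 and DOCA-salt ratios of 1.74, 0.942 and 0.532. Lfng and Camk2n1 in endothelial cells of cortex sham came to 0.27 and 0.38 of their levels in its astrocytes. The part of astrocyte RNA in their differences was not tested. Lfng and Camk2n1, like Cpe, were picked for a shared direction in both pairs. Cpe, a prohormone carboxypeptidase, stood at 118 CPM in hippocampus sham, 606 in cortex sham, 244 in hippocampus DOCA-salt and 511 in cortex DOCA-salt, but this class held 0.28 of its level in cortex sham astrocytes, and Slc1a2 in the same endothelial cells stood at 135 and 883 CPM in the sham pair, and the part of astrocyte RNA in the Cpe difference was not tested.

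Mgp, a matrix protein of larger arteries, stood at 411 CPM in hippocampus sham, 64.0 in cortex sham, 116 in hippocampus DOCA-salt and 245 in cortex DOCA-salt. It was highest in hippocampus sham and lowest in cortex sham, with ratios of 6.43 (interval 4.62 to 9.17) and 0.471 (interval 0.364 to 0.610). The 5 cells with the most Mgp held 88.1%, 62.5%, 54.7% and 64.9% of its UMIs in hippocampus sham, cortex sham, hippocampus DOCA-salt and cortex DOCA-salt, and pericytes held more of it than endothelial cells. The ratios were 2.04 (interval 1.82 to 2.30) and 1.01 (interval 0.900 to 1.14) with the most-markers gate.

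**Figure D5:**
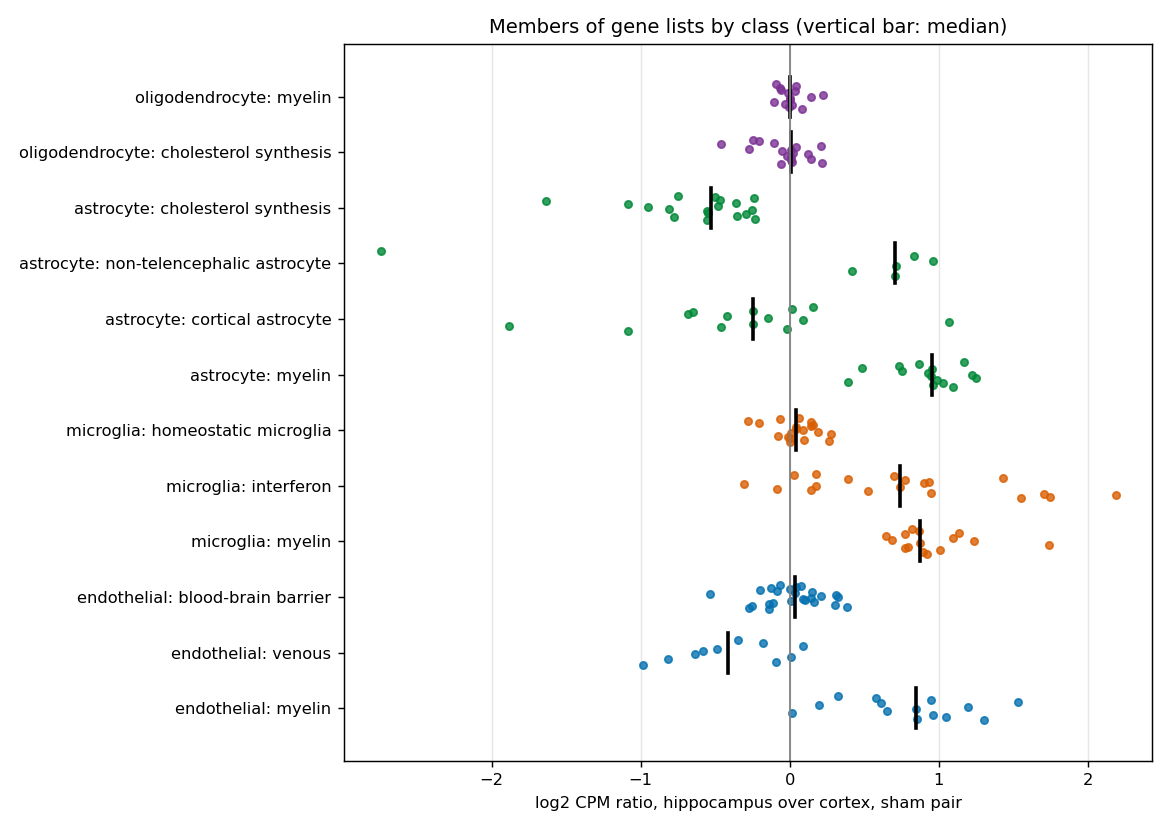
Log2 ratio of hippocampus sham over cortex sham for the measured members of 12 gene lists within their classes, with 1 point per gene and a bar at the list's median. The interferon list in microglia has its median at 0.74, the cholesterol list in astrocytes at -0.53 and the myelin list in oligodendrocytes at 0.00.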

How the data were processed

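Raw UMI counts per gene and barcode were deposited by the authors for each of the 4 libraries, not normalized. fastp, STAR, Subread and Seurat are named without versions and the build as GRCm38, per the submitters' processing notes. All 32285 genes were read with Python 3.11.15, numpy 2.4.6, scipy 1.17.1, pandas 2.3.3 and scanpy 1.11.5. Barcodes with at least 20% haemoglobin UMIs were called erythroid. Scrublet marked 5.11% and 6.65% of the hippocampus and cortex sham barcodes as doublets; they were kept and left out as an alternative. The 144 gate genes were not tested. Some genes are not reported here. Genes needed 50 UMIs in the sham pair, and list members 20. Ratio intervals are exact conditional 95% intervals. They were tried only on simulated independent counts, the model that such intervals assume. That simulation held no clustering of UMIs in few cells, so it does not show how the intervals fare there. A count of 0 was set at 3 counts over the class sum. Named in each class were the 5 highest and 5 lowest genes by the interval bound nearest to 1, and 3 each by the weaker bound of both pairs. The latter choice fixed in advance that those genes had the same direction in both pairs. PCR duplicates were collapsed only by UMI. Members and gene lists were chosen with earlier results of these data known.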

Additional observations from a re-analysis of the deposited data

Results flagged for a closer look

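In 4 genes named in the text the sham pair and the DOCA-salt pair lay on opposite sides of 1, each by at least 1.5-fold and by more than its counting interval; these differences between the pairs were not tested, since each pair holds 1 library per tissue. Cntnap5a in oligodendrocytes had a hippocampus-to-cortex ratio of 0.511 in the sham pair and of 1.55 in the DOCA-salt pair, and 0.578 and 1.505 with the most-markers gate. Klk6 in oligodendrocytes had ratios of 0.597 and 1.95, but 0.461 and 0.303 with that gate. Myoc in astrocytes had ratios of 0.0995 and 10.1, with nearly all UMIs of each library in 5 cells, but 1.49 and 3.64 with that gate. Mgp in endothelial cells had ratios of 6.43 and 0.471, but 2.04 and 1.01 with that gate. Agt in astrocytes also lay on opposite sides of 1, with ratios of 1.63 and 0.926, the second of them by less than 1.5-fold.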

How the results depend on the processing

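No paired analysis was possible because each tissue and treatment had 1 library. Shares, gene counts, list medians and named genes were recomputed with gates of 2 or 4 markers, mixed barcodes given to the class with the most markers, other cell filters and scalings, equal weight per cell, without Scrublet doublets, thinned to 2000 UMIs and without a UMI minimum. Of 100 recomputed shares and counts 67 stayed within their limits and 33 moved. Of the recomputed list medians 1034 stayed, 347 moved and 3 reversed, and of the named gene ratios 437 stayed, 59 moved and 2 reversed. The oligodendrocyte share ratio was 3.57 with 2 markers, 2.04 with 4 and 1.67 with the most-markers gate, the astrocyte ratio 0.252 with that gate, and the microglial ratio 1.10 with 2 markers. With 2 markers the counts of genes past 2-fold were 84 lower in oligodendrocytes, 93 higher in astrocytes, 43 higher and 49 lower in microglia, and 12 and 15 in endothelial cells. With 4 markers they were 210 and 239 in microglia and 99 lower in endothelial cells. With the most-markers gate they were 194 and 313 in oligodendrocytes, 364 higher in astrocytes, 323 and 337 in microglia, and 86 and 196 in endothelial cells. Thinned, they were 65 and 93 in oligodendrocytes, 75 and 68 in microglia, and 29 lower in endothelial cells. Without a UMI minimum they were 217 and 444 in oligodendrocytes, 566 higher in astrocytes, 406 and 325 in microglia, and 159 and 264 in endothelial cells. The cause of these moves was not tested. Reversed were the MHC class II median in oligodendrocytes (log2 1.41, against -0.76 with 4 markers and -0.28 with the most-markers gate), that in astrocytes (-1.30, against 0.011 with that gate) and Myoc in astrocytes (-3.33, against 0.75 with 2 markers, from 1 and 6 UMIs, and 0.58 with the most-markers gate). Choosing the highest class among those of at least 100 cells, the rule first set, would count 62 rather than 24 higher oligodendrocyte genes as own; the limit of 20 cells used here was chosen after seeing the data. The interferon median in microglia stayed between 0.48 and 0.75 and the cholesterol median in astrocytes between -0.59 and -0.46. Depth limits the sums of hippocampus sham astrocytes (282 cells) and of cortex sham endothelial cells (246 cells).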

Other observations

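Values here were picked after they were seen and have no replicate. Ifnb1, the gene of interferon beta, which sets off the interferon response, was not on the interferon list. In microglia it stood at 487 CPM in hippocampus sham, 192 in cortex sham, 314 in hippocampus DOCA-salt and 249.9 in cortex DOCA-salt. Hippocampus sham was highest, with a ratio of 2.54 (interval 2.32 to 2.78), and the DOCA-salt ratio was 1.26 (1.12 to 1.41). After thinning to 2000 UMIs, Ifnb1 was detected in 31.6% of hippocampus sham microglia (27.9 to 35.4), 15.8% of cortex sham (13.1 to 18.8), 20.5% of hippocampus DOCA-salt and 15.5% of cortex DOCA-salt microglia, against 3.59% and 1.35% of sham oligodendrocytes. Unthinned it was in 36.6% and 22.7% of sham microglia, and the 5 cells with the most held 10.03% and 14.2% of its UMIs.

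Emx1, whose near absence from the libraries labelled cortex is given above, had ratios of 64.0 (24.7 to 237) and 52.0 (17.5 to 255) over all kept barcodes. Among astrocytes of the most-markers gate, 39 of 921 hippocampus sham cells and 2 of 3611 cortex sham cells held it, and 54 of 1837 and 1 of 4236 in the DOCA-salt pair. Zic1, a zinc finger factor of medial and septal brain regions, stood in these astrocytes at 9.16, 0.959, 11.6 and 0.590 CPM, ratios of 9.55 (5.63 to 16.7) and 19.7. Emx1 and Zic1 were thus high in both hippocampus libraries.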
